A study of Mus musculus with 2 samples.

Results

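Spi1, Spib and Spic are the 3 genes of the mouse PU.1 subfamily of ETS transcription factors, and they were examined among 21853 protein-coding genes for accessible chromatin in haematopoietic stem cells. The members were chosen by name, and each was given the window of its GENCODE M21 gene body plus 50 kb on each side. These windows held 32 of the 53241 peaks of the main list, the conservative list of peaks that passed the irreproducible discovery rate (IDR) procedure across both libraries. Overlapping peaks were merged into regions, which left 19 of 31532 regions, 7 around Spi1, 9 around Spib and 3 around Spic. Over all 8 peak lists the windows held 39 distinct regions, 17 around Spi1, 13 around Spib and 9 around Spic.

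The assay was ATAC-seq, which reads chromatin accessibility from where a transposase can cut and tag the DNA. There was 1 group of 2 libraries, labelled as replicates 1 and 2, whose stem cells came from C57BL/6J adults at 5 to 6 weeks of age, with no genetic change or treatment named. Both libraries carry the same donor identifier, sex was not collected, no sort markers are given, and a starting amount of 50000 cells is stated for replicate 2 only. Differences between the libraries may therefore be technical, and no test between conditions was possible. Depth is unknown because the files list peaks. Of the 10 stem cell marker genes, 5 had a promoter peak in the main list and 10 in the pseudoreplicated list of both libraries, against 51.5% and 66% of all protein-coding genes. Of the 9 markers of mature lineages, 1 and 3 had one in the same lists, and Cd3e and Cd4 had none in any list.

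PU.1, encoded by Spi1, is a dose-sensitive factor that directs stem and progenitor cells towards myeloid and lymphoid fates through purine-rich DNA sites with a GGAA core. In mouse cells its gene is controlled by its promoter together with an upstream regulatory element about −14 kb from the start, which binds RUNX1 and PU.1 itself, and macrophages use a further element at about −12 kb. Spi-B, encoded by Spib, acts in B cells, plasmacytoid dendritic cells and the M cells of the gut. Spi-C, encoded by Spic, is needed for red pulp macrophages that recycle iron, where haem induces it by removing the repressor BACH1.

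The DNA under some of the regions described below is shown first, and for Spi1 and Spic other regions lay nearer to the gene. Each stretch is mm10 sequence within 100 bases of the region's summit, the base where its strongest peak is highest, read on the strand of the gene it flanks. The Spi1 region at −13.6 kb lies at chr2:91082962-91083162 on the plus strand. On the minus strand lie the Spib region at +3.9 kb, chr7:44528039-44528239, the Spib region at −2.5 kb, chr7:44534428-44534628, the Spic region at +37.3 kb, chr10:88645604-88645804, and the Spic region at +13.1 kb, chr10:88669820-88670020. Distances are from the RefSeq start of the gene in its direction of transcription. Capitals mark matches to the motifs named in the next paragraph.
Spi1 −13.6 kb: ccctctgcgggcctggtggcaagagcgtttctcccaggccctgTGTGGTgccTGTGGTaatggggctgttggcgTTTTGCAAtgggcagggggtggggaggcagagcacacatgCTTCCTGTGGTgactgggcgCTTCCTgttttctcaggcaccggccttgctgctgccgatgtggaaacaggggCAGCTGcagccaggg
Spib +3.9 kb: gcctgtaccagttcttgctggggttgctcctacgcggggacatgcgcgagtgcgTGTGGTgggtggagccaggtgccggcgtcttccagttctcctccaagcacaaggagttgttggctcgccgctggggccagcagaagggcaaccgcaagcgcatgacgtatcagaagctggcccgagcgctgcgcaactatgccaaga
Spib −2.5 kb: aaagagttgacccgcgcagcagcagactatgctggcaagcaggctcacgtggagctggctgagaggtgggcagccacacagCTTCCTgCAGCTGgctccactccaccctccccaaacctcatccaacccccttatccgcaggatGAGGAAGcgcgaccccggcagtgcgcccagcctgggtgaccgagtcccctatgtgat
Spic +37.3 kb: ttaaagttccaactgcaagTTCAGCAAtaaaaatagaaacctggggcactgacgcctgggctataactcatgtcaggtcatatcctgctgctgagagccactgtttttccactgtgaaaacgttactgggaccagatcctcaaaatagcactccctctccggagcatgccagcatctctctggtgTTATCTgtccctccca
Spic +13.1 kb: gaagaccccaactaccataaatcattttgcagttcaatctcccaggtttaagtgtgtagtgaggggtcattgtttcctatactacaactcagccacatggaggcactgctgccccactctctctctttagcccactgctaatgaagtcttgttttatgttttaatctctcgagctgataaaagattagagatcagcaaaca
RefSeq promoters matched for 2 of the 3 members, Spib and Spic, and their 250 bases upstream of the start are given because Spib had no promoter peak in any list and Spic had one in some lists only. They lie on GRCm38.p6, the assembly of mm10, at chr7:44532072-44532321 and chr10:88683024-88683273, both on the minus strand.
Spib promoter: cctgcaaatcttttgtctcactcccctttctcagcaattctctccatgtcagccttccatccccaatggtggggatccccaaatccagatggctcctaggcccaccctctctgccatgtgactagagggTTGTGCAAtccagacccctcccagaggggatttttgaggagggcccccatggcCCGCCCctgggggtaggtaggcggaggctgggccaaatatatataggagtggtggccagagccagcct
Spic promoter: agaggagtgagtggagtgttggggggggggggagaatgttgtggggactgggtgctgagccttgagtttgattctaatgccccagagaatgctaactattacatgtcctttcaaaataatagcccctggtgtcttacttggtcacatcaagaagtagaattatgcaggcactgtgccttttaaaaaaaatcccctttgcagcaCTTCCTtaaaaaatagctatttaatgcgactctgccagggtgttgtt

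The letters searched, on both strands, were GAGGAA for the core of PU.1 sites and GAGGAAGT for its long form. TGTGGT stood for RUNX factors, TTGCNNAA for C/EBP factors, AGATAA for zinc finger factors of the GATA family and TGANTCA for AP-1. CAGCTG stood for the E-box, TAACNG for MYB, GGGCGG for the GC box and ATGCAAAT for the octamer. An ETS-IRF composite and a CTCF motif were searched as well. AGGAAG, written here as the ETS letters, was searched after the sequences had been seen, and it overlaps the PU.1 core wherever that is followed by G. A match describes letters only. The Spi1 −13.6 kb window held 3 RUNX matches, 1 C/EBP match, 1 E-box and 2 ETS matches, and the ETS match at bases 115 to 120 shares its last base with the RUNX match at bases 120 to 125. At least 3 RUNX matches occurred in 0.625% of the 31532 windows of the main list, at least 2 in 4.21% and any in 23.1%. Any C/EBP match occurred in 7.75% of these windows, any E-box in 15.6% and any ETS match in 42.1%. The window held no GAGGAA, which 31.2% of all windows had, and the whole region of 793 bp had 1, near its downstream edge at 582 bp from the summit. Spib +3.9 kb held 1 RUNX match, and Spib −2.5 kb held 1 PU.1 core, 2 ETS matches and 1 E-box. Spic +37.3 kb held 1 C/EBP and 1 GATA match, the second of which 6.53% of windows had, while Spic +13.1 kb held none of the motifs. The Spib promoter had 1 C/EBP match and 1 GC box, found in 9.56% and 32.7% of 32851 RefSeq promoters over the same 250 bases, and the Spic promoter had 1 ETS match, found in 29.5%.

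Spi1 alone of the 3 genes had a promoter peak in the main list. A promoter peak was a region whose summit lay within 1 kb of the start of any protein-coding transcript of the gene. In the main list 51.5% of all protein-coding genes had one. The signal is the value that the authors deposited for each peak, with no scaling given. At the Spi1 start it was 8.42 in the lists made from both libraries, 9.88 in replicate 1 and 5.65 in replicate 2. Replicate 1 was the higher of the libraries, as it was at all shared regions of these loci. Among the 11258 genes with a main promoter peak, whose median signal was 9.81, 33.1% had a lower signal than Spi1. The region was broad, 1084 bp at chr2:91096266-91097349, wider than 90.7% of main regions, and it was merged from 2 peaks with summits at 42 and 495 bp downstream of the RefSeq start. GENCODE's principal Spi1 transcript starts 582 bp upstream of the RefSeq start, so the same summit lies 624 bp inside that transcript.

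The upstream element of Spi1 was accessible in both libraries, with nearly equal signal. The Spi1 region at −13.6 kb, chr2:91082866-91083658, had a signal of 7.25 in the lists of both libraries, 7.27 in replicate 1 and 6.76 in replicate 2. It was present in all 8 lists and had the maximal IDR score of 1000 in the main list, against 914 for the start region. The start region also had 1000 in the IDR thresholded list of both replicates. In the main list the promoters of Psmc3, Slc39a13, Pold1 and Arl1 had 1000 too, as did the shared promoter of Emc10 and Fam71e1. So did the Nr1h2 promoter region at −21.9 kb from Spib and the Rapsn intron region at −53.8 kb from Spi1. Summits of the −13.6 kb region in the replicates lay 5 bp apart, where the median over 48575 shared regions was 20 bp. Of main regions, 32.9% had a lower signal. In replicate 1 the start region was the higher (9.88, against 7.27 at −13.6 kb), and in replicate 2 the upstream region was (6.76, against 5.65 at the start). Because a longer protein-coding transcript of Spi1 in GENCODE starts within 1 kb of it, the −13.6 kb region also counts as a Spi1 promoter region, and in replicate 2 the promoter signal of Spi1 by that rule is the upstream region's 6.76. Measured from the GENCODE principal start its summit lies at −13.034 kb, inside the window of 1 kb each side of −14 kb but outside a window of 500 bp. With the RefSeq start, a choice made after the data were seen, it lies inside both.

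At −12 kb, the place of the macrophage element, none of the 8 lists had a summit within 1 kb when distances were taken from the RefSeq start. From the GENCODE principal start a lesser summit of the −13.6 kb region, with a signal of 1.82 in the lists of both libraries, lay at −12677 bp. Replicate 1's lists had lesser summits of that region at −12657 and −12510 bp, with 1.95 and 2.11. The other Spi1 region of the main list within the gene was in an intron at +4.9 kb, with 5.07 in the lists of both libraries, 5.39 in replicate 1 and 4.25 in replicate 2. Only 4.93% of main regions were lower, replicate 2's IDR thresholded list did not hold it, and its window had none of the motifs. Around these 3 regions lay a set of weak ones that only the more permissive lists held, at −18.0, −15.4, −10.2, −9.0, −7.5, −7.1, +16.8, +18.5 and +35.6 kb, with signals of 2.42 to 4.45 where the lists of both libraries had them. The region at −7.5 kb reached 5.57 in replicate 1. None of these 9 was in replicate 2's IDR thresholded or pseudoreplicated list, and the +18.5 kb region lay in coding sequence of Spi1. In a bulk library, an element open in few cells and an element partly open in many cannot be told apart.

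**Figure D1:**
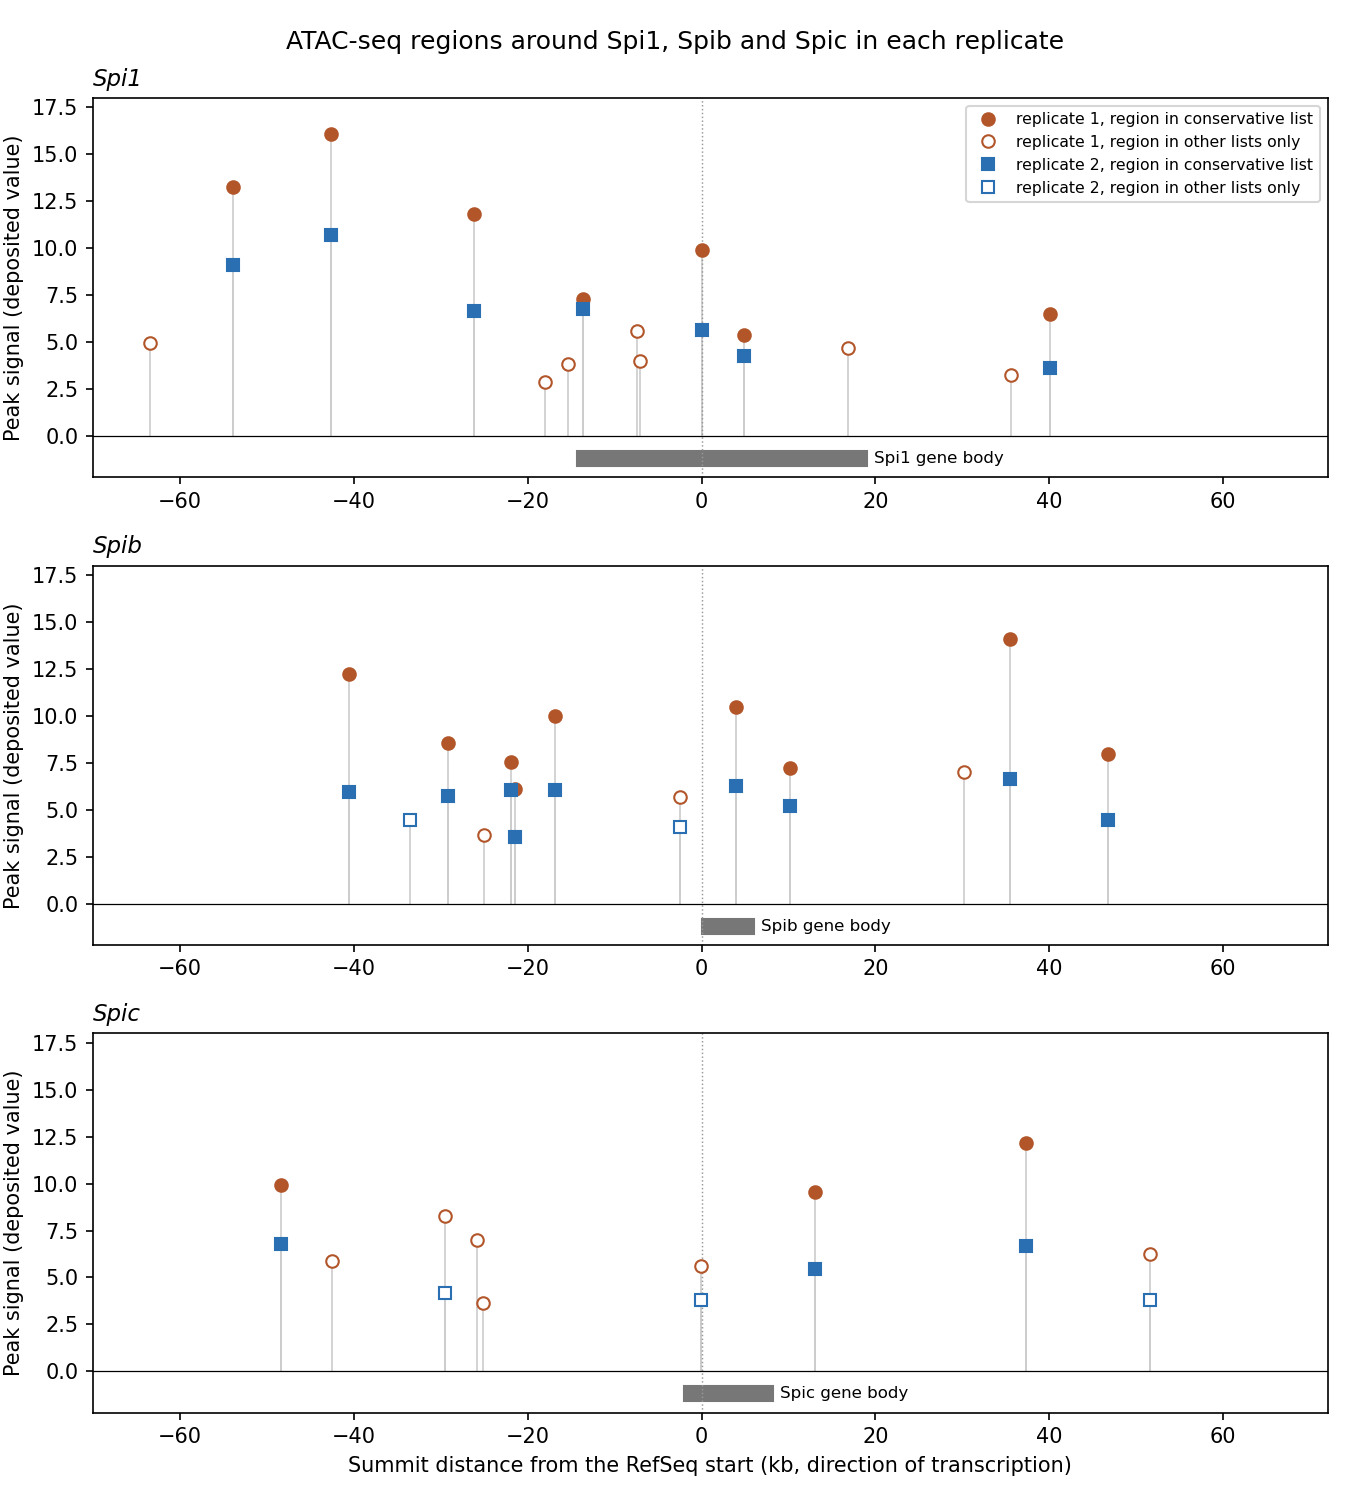
Signal of each region (vertical axis, the value deposited for the peak) against the distance of its summit from the RefSeq start of Spi1, Spib or Spic in kb (horizontal axis), from the pseudoreplicated lists of replicate 1 (circles) and replicate 2 (squares). Filled symbols are regions of the main list and the grey bar is the gene body; at Spi1 −13.6 kb the libraries nearly coincide at 7.27 and 6.76, Spib has no symbol at its start, and Spic has open symbols there at 5.59 and 3.81.

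Spib had no promoter peak in any of the 8 lists, including the most permissive ones. The share of all genes with a promoter peak was 56% in the IDR thresholded list of both replicates, 64.9% in the replicated list and 66% in the pseudoreplicated list of both. It was 52% and 45.6% in the IDR thresholded lists of replicates 1 and 2, and 63.4% and 61.8% in their pseudoreplicated lists. A region inside the Spib gene, whose target gene was not tested, lay at +3.9 kb in a coding exon, at chr7:44527537-44528466. Its signal was 8.34 in the lists of both libraries, 10.5 in replicate 1 and 6.26 in replicate 2, it was in all 8 lists, and 50.1% of main regions were lower. A region at −2.5 kb, inside an intron of the upstream neighbour Pold1, had 4.93, with 5.67 in replicate 1 and 4.06 in replicate 2. It entered 5 lists but not the main list.

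Spic had a promoter peak only in the permissive lists. Its summit was −60 bp from the start and its signal 5.77 in the replicated and pseudoreplicated lists of both libraries, 5.59 in replicate 1 and 3.81 in replicate 2. In the pseudoreplicated list of both, 23.1% of the 14427 genes with a promoter peak were lower. Apart from the promoter of a neighbour, the Spic regions of the main list were intergenic and downstream of the gene. The Spic region at +37.3 kb had 10.1, with 12.2 in replicate 1 and 6.66 in replicate 2, and 72% of main regions were lower. The Spic region at +13.1 kb had 8.17, with 9.54 in replicate 1 and 5.47 in replicate 2, and its summits in the libraries were 0 bp apart. It was only 227 bp wide, narrower than nearly all main regions, of which 0.764% were narrower still. Both were in the main list and in 7 of the 8 lists, the exception being replicate 2's IDR thresholded list. Upstream, the Spic region at −29.5 kb had 6.35, with 8.29 in replicate 1 and 4.16 in replicate 2, and was in replicate 1's IDR thresholded list but not in the main list.

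**Figure D2:**
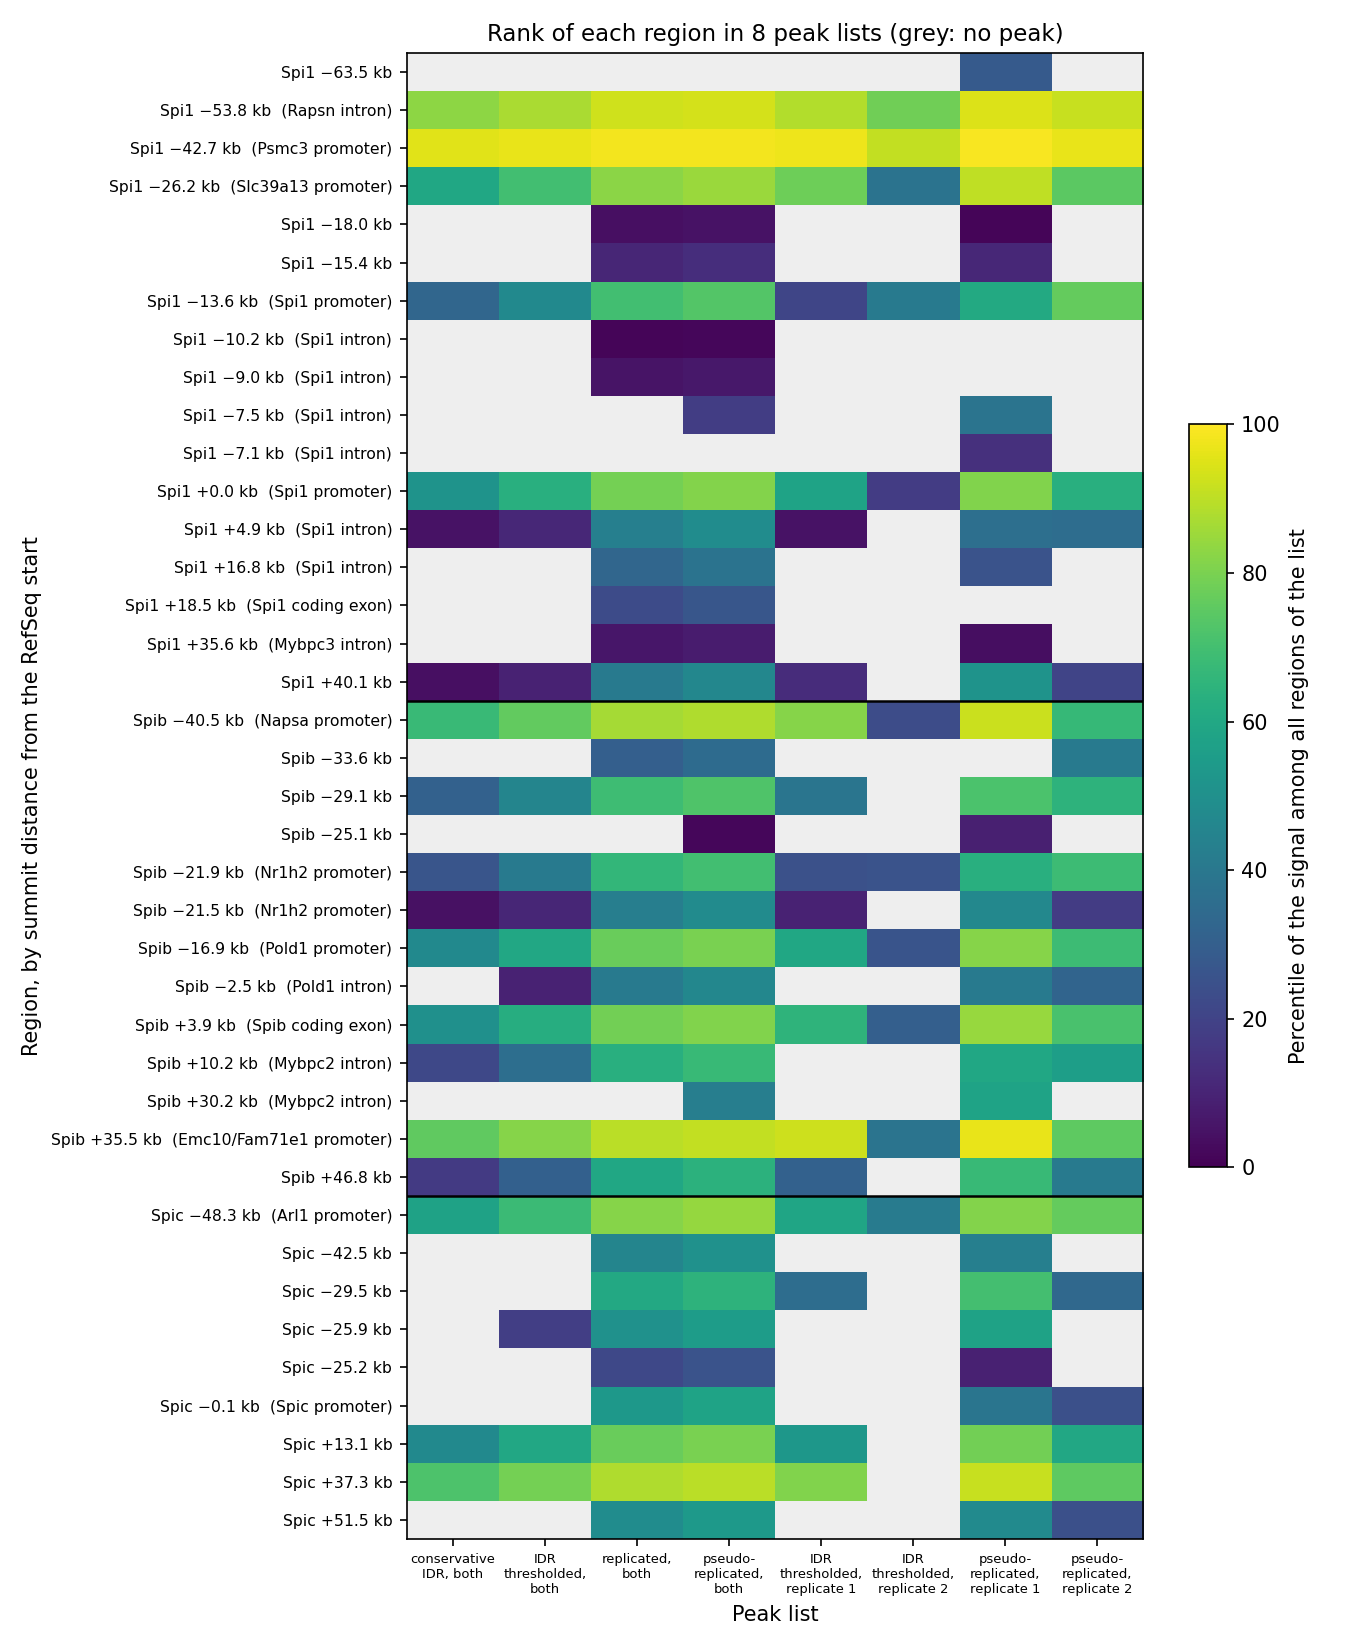
Percentile of the signal (colour, 0 to 100) of each of the 39 regions (rows, by distance from the RefSeq start, with the gene and annotation of the summit in parentheses and none for intergenic summits) in the 8 peak lists (columns); grey means no peak. Spi1 −13.6 kb and Spib +3.9 kb are coloured in every column, Spic −0.1 kb in 4, and no row stands for a Spib promoter; the 2 rows named Spi1 promoter are the RefSeq start and the start of a longer Spi1 transcript.

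The windows differed in how crowded they were. Spi1 had 7 main regions in its window, Spib 9 and Spic 3, against a median of 3 over all protein-coding genes, and 83.1%, 93.1% and 39.8% of genes had fewer than Spi1, Spib and Spic in that order. In replicate 2's pseudoreplicated list Spi1 had 7 regions against a median of 6, and 55.4% of genes had fewer. Per 100 kb of window, the main list held 5.25 regions for Spi1, 8.48 for Spib and 2.72 for Spic, against a median of 2.38. Replicate 2's IDR thresholded list held 5 regions in the Spib window, fewer than the 9 of the main list by more than 1.5 times. Much of this density belonged to neighbours. Of the 7 main Spi1 regions, 4 were promoter regions, those at the start and at −13.6 kb and those of Psmc3, a proteasome ATPase (13.9), and Slc39a13, a zinc transporter (8.99). An intron of Rapsn, which clusters acetylcholine receptors in muscle, held a region of 11.3 at −53.8 kb although Rapsn itself had no promoter peak in any list, and an intergenic region at +40.1 kb had 4.93. In the Spib window, 5 of 9 main regions were promoters of other genes, namely the shared promoter of Emc10 and Fam71e1 (10.4), Napsa (9.68), Pold1, the catalytic subunit of DNA polymerase delta (8.17), and 2 regions of Nr1h2, the oxysterol receptor LXR beta (6.89 and 5.03). The other main regions around Spib besides +3.9 kb lay at +10.2 kb in an intron of Mybpc2 (6.57), at −29.1 kb (7.16) and at +46.8 kb (6.25), the last pair intergenic. In the Spic window the promoter of Arl1, a Golgi GTPase, had 8.87 over a region of 1496 bp.

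A gene for a muscle myosin-binding protein C lies near each member on its own chromosome, and none of them was accessible at its start in the main list. Mybpc3 lies 2.388 kb from Spi1, Mybpc2 1.337 kb from Spib and Mybpc1 69.62 kb from Spic, outside the Spic window. Mybpc3 and Mybpc2 had no promoter peak in any of the 8 lists, and Mybpc1 had one of 4.28 in replicate 1's pseudoreplicated list only.

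The libraries differed in the same direction at every shared region of the loci. All 23 regions found in the pseudoreplicated lists of both replicates had the higher signal in replicate 1, against 87.9% of the 48575 regions shared genome-wide. The log2 difference, replicate 1 minus replicate 2, ranged from 0.10 at Spi1 −13.6 kb to 1.08 at the Emc10 and Fam71e1 promoter, with a median of 0.72, against a genome-wide median of 0.46 with quartiles of 0.20 and 0.74. The value at Spi1 −13.6 kb was higher than that of 17.9% of shared regions, and the value of 0.81 at the Spi1 start was higher than that of 79.4%. The Spib coding exon region had 0.74, and the Spic regions at +37.3 and +13.1 kb had 0.87 and 0.80. Signal of the libraries was deposited with no stated scaling, so the part of depth in these differences was not tested.

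**Figure D3:**
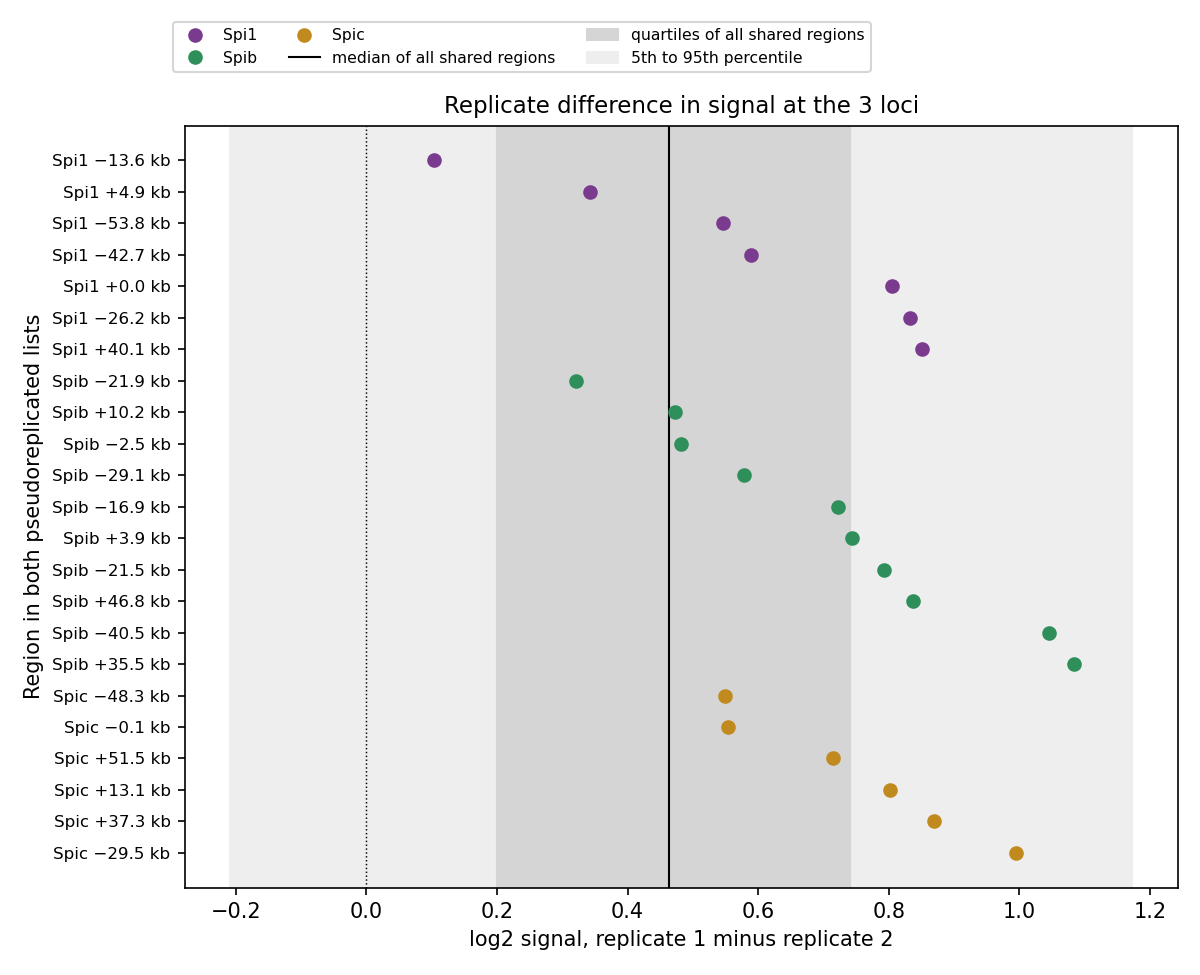
Difference in log2 signal, replicate 1 minus replicate 2 (horizontal axis), for the 23 regions of the Spi1, Spib and Spic windows in both pseudoreplicated lists (rows). The line and bands are the median, quartiles and 5th to 95th percentile of 48575 shared regions; all points lie to the right of 0, and Spi1 −13.6 kb is the lowest at 0.10.

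A further 12 regions were in replicate 1's pseudoreplicated list and not in replicate 2's, with signals of 2.89 to 7.03 in replicate 1, against 5.39 to 16.1 for the 23 shared regions there. Of these, 7 were around Spi1, 2 around Spib and 3 around Spic. The reverse held for 1 region, at Spib −33.6 kb, with 4.46 in replicate 2. In the IDR thresholded lists, 11 of replicate 1's 19 regions in the windows overlapped a region of replicate 2, or 57.9% (95% exact binomial interval 33.5 to 79.7, counting error only), against 56.5% genome-wide. All 12 regions of replicate 2 overlapped a region of replicate 1, against 87.5% genome-wide. Per gene, 5 of 7 replicate 1 regions of Spi1 were shared, 5 of 8 of Spib and 1 of 4 of Spic, the last being the Arl1 promoter.

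Matches to the PU.1 core near the summits were few at these loci, by a count that depended on the window. Within 100 bases of the summit, 2 of the 19 main regions had GAGGAA, or 10.5%, against 31.2% of all main regions. They were the Rapsn intron at −53.8 kb from Spi1 and the Emc10 and Fam71e1 promoter. The few main regions inside the members had none at this distance. These were −13.6 kb, the start and +4.9 kb of Spi1 and +3.9 kb of Spib, and Spic had no main region inside it. There were 0 of 19 within 50 bases, against 20% of all regions, and 7 of 19 within 150 bases, or 36.8%, against 38.6%. Many of the 19 were promoters of neighbouring genes, and the shares of all regions were not split into promoters and other regions. The ETS letters AGGAAG were in 3 of 19, or 15.8%, against 42.1%. C/EBP letters were in 4 of 19, or 21.1%, against 7.75%, and these were the −13.6 kb and start regions of Spi1, Spib −29.1 kb and Spic +37.3 kb. RUNX letters were in 4 of 19, or 21.1%, against 23.1%. GC boxes were in 7 of 19 against 28.6%, E-boxes in 4 against 15.6%, GATA letters in 2 against 6.53% and MYB letters in 1 against 17.1%. Long PU.1, AP-1, CTCF, composite and octamer letters were in 0, against 7.85%, 7.64%, 8.38%, 2.45% and 0.929%. Outside the main list, Spi1 −7.5 kb and Spib −33.6 kb held the long PU.1 letters, which 8.06% of windows of the pseudoreplicated list of both had. Within 150 bases C/EBP letters were in 4 of 19 against 11.2%. No difference between motifs was tested. GC content was 63.7% in the Spi1 −13.6 kb window and 42.3% in the Spic +13.1 kb window, against a median of 54.7% over all main windows.

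Genes linked to the 3 factors were counted by promoter peak in hand-made lists. Of 16 regulators of Spi1 and partners of PU.1, 12 had a main promoter peak, or 75% (95% Wilson interval 50.5 to 89.8, which includes the 51.5% of all genes). In the pseudoreplicated list of both libraries 15 had one, or 93.8% (71.7 to 98.9), against 66% of all genes. The highest were Cbfb, the partner subunit of RUNX factors (11.1), and Irf4 and Irf8, interferon regulatory factors that bind DNA together with PU.1 (9.96 and 8.79). Gata1, the erythroid factor that opposes PU.1, had none in any list. Runx1 and Cebpa, named after their values were seen because their letters occur at Spi1 −13.6 kb, had 5.76 and 7.54. Of 20 target genes of PU.1, 11 had a main promoter peak, or 55% (34.2 to 74.2), near the 51.5% of all genes. In the pseudoreplicated list of both, 17 had one, or 85% (64 to 94.8), against the same 66%. The highest were Tlr4, the endotoxin receptor (11.8), Flt3, a receptor kinase of multipotent progenitors (11.4), and Il7r, the interleukin-7 receptor chain (9.77). Cybb, the phagocyte oxidase subunit, and Cd79a, a chain of the B cell receptor, had none in any list.

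Genes linked to the paralogues were counted in the same way. Of 8 genes related to Spi-B, 5 had a main promoter peak, 62.5% (30.6 to 86.3) against 51.5% of all genes, the highest being the purinergic receptor P2ry10 (9.13), the E protein Tcf4 (8.62) and Tnfaip2 (5.26), while Gp2, an M cell receptor, and Pou2af1, a B cell coactivator, had none in any list. Of 6 genes related to Spi-C, 3 had one, 50% (18.8 to 81.2) against the same 51.5%, namely Hmox1, the haem-degrading oxygenase (10.3), Slc40a1, the iron exporter ferroportin (8.61), and Bach1, the haem-sensing repressor (6.08), while Cd163, a haemoglobin scavenger receptor, had none in any list. Among the stem cell markers the highest were Ctnnal1 (10.8), Kit (8.39) and Cd34 (8.33), and the only lineage marker with a main promoter peak was Itgam (5.27). By promoter signal and number of window regions in each replicate's pseudoreplicated list, the genes most like Spi1 were Noct, Cox6b2 and Mrpl12, at distances of 0.927, 3.94 and 5.41 percentile points over these 4 measures, with the −13.6 kb region standing for the Spi1 promoter in replicate 2.

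**Figure D4:**
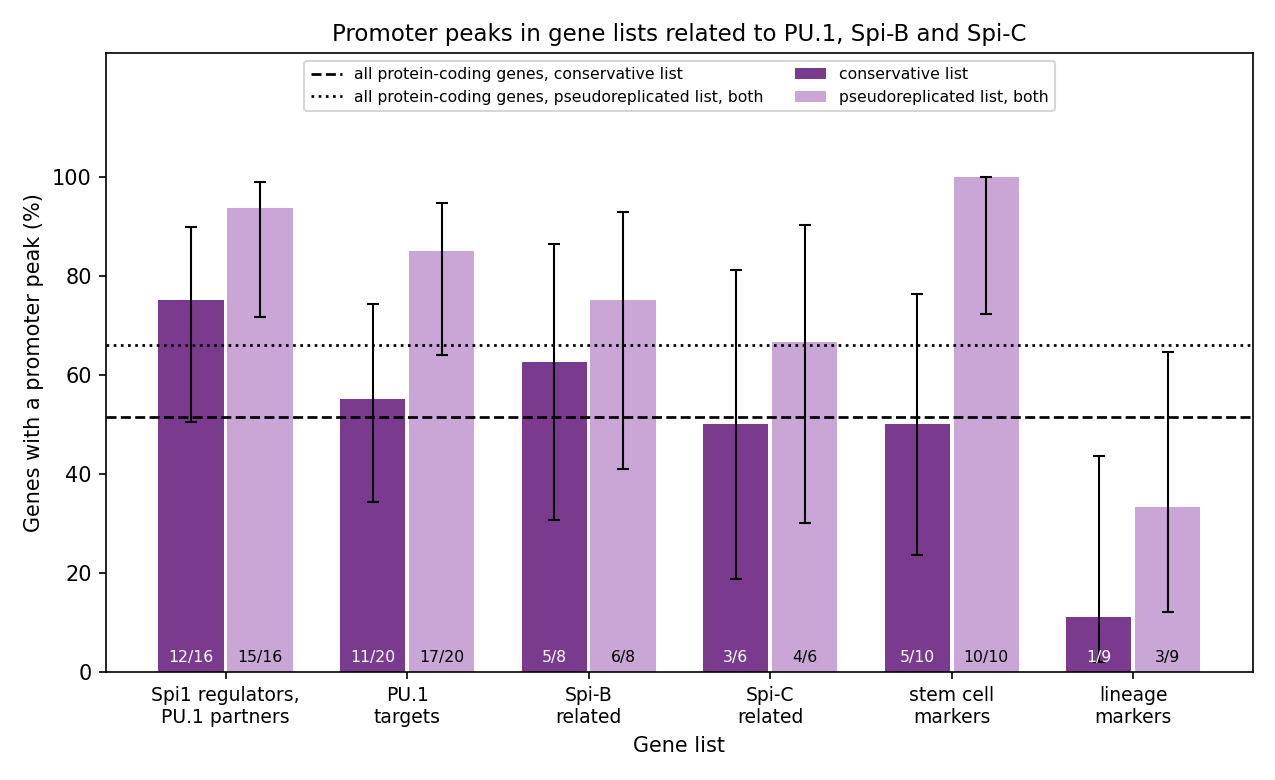
Share of each gene list with a promoter peak (vertical axis, percent) in the main list (dark bars) and the pseudoreplicated list of both libraries (light bars), with 95% Wilson intervals and the counts at the foot of each bar. The dashed and dotted lines are the shares of all protein-coding genes, 51.5% and 66%; the regulators and partners reach 12 of 16 and 15 of 16, and the lineage markers 1 of 9 and 3 of 9.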

How the data were processed

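The ATAC-seq of 2 libraries of haematopoietic stem cells reached this work as peak lists on mm10, per the labels. Which aligner, caller and cut-site shift were applied is not given in the sources used here. The authors deposited for every peak a signal, with no scaling given, which is used only to describe or rank peaks and, between replicates, as a difference of log2 signal. They also deposited its −log10 p, which entered no result. The deposited IDR score runs from 540 to 1000 in the conservative list.

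The conservative IDR thresholded list, whose 53241 peaks all have the position and score of a peak in a ranked list made from both libraries, was the main list. Peaks that overlapped by at least 1 base were merged, and a region kept the summit and signal of its highest-signal peak. Genes came from GENCODE M21, and percentiles are the share of regions or genes with a lower value. Start sites for distances came from RefSeq on GRCm38.p6. Work was done in Python 3.11.15 with numpy 2.4.6, scipy 1.17.1 and matplotlib 3.10.9. Peak assignment and motif search recovered 200 of 200 planted cases in simulated data. With 1 group no test between conditions was made.

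The members, gene lists, 12 motifs and alternatives were chosen with earlier results of these data known, and the ETS motif and the RefSeq start for the −14 kb element after seeing the data. Genes named were the members, genes with a start in a member window, and in each list the 3 of highest promoter signal and up to 3, alphabetically, with no promoter peak in any list, apart from a gene that is not reported here. For Spi1, the 3 genes nearest in percentile of promoter signal and window regions were named too.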

Additional observations from a re-analysis of the deposited data

How the results depend on the processing

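Of 114 settings tried over all results, 81 moved a signal by less than 1 SD of the replicates' own signals, a count by at most 1.5 times or a share within its exact interval, and 33 did not. The 81 are no measure of robustness. The lists of both libraries give a shared peak the same signal, so a change between them could not move it. For the Spi1 promoter the replicates' signals, 9.88 and 6.76, come from different regions, which makes that SD wide. The Spi1 promoter signal was 6.76 to 9.88 without either replicate, where 6.76 is the −13.6 kb region's, and no setting gave Spib a promoter peak. Spic's promoter signal was 0 in the main list, 5.77 in the replicated list and in the pseudoreplicated list of both, and 5.59 and 3.81 in the pseudoreplicated lists of replicates 1 and 2. Spi1 had 14 regions in the replicated list, 15 in the pseudoreplicated list of both and 14 in that of replicate 1, against 7, and Spic had 9, 9 and 9 in these lists and 7 in that of replicate 2, against 3. Without either replicate, counts were 5 to 7 for Spi1, 5 to 8 for Spib and 2 to 4 for Spic. Above the median signal, 4 regions were left for Spi1 and 3 for Spib. Within 20 kb there were 4, 3 and 1 for Spi1, Spib and Spic, within 100 kb 11 for Spi1, and unmerged peaks numbered 13 for Spi1 and 6 for Spic. The Spi1 element at −14 kb had 6.76 in replicate 2's pseudoreplicated list, 6.76 to 7.27 without either replicate, and 0 both above the median signal and with 500 bp each side of the GENCODE offset. The share of replicate 1's regions found in replicate 2 was 100% against replicate 2's pseudoreplicated list, and the share of replicate 2's found in replicate 1 was 100%, against 57.9%. Above the median signal, 4 of 16 regulators or partners and 4 of 20 targets had a promoter peak. The share of all genes at that cut is not given, so these counts have no background. The targets had 17 in the pseudoreplicated lists of both replicates and of replicate 1, where 66% and 63.4% of all genes had one. PU.1 core matches were 0 within 50 bases, 7 within 150 and 0 for the long letters, against 2. The cause of these changes was not tested. No paired analysis was possible because there is 1 group. Depth is unknown, so a missing peak shows only that none was listed.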
